A study of Homo sapiens with 6 samples.

Results

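Germ layer factors are the transcription factors by which cells of the early embryo take on an ectodermal, mesodermal or endodermal fate. The account below covers 10 of them in NTERA2/D1 cells: T (TBXT), MIXL1, EOMES, GATA4, GATA6, SOX17, FOXA2, PAX6, OTX2 and CDX2. They were chosen by name, and every probe set whose platform annotation names 1 of them was taken, which gave 21 probe sets for the 10 genes, of 54675 probe sets and 19775 genes on the array. T, MIXL1 and EOMES had 1 probe set each and the other 7 genes had several. NTERA2/D1 is an established human line from a testicular teratocarcinoma, kept as embryonal carcinoma cells. The arrays compared 3 samples transfected with siRNA against VAMP7, a vesicle SNARE, with 3 samples transfected with a nonspecific scrambled siRNA. Both groups were the same line, transfected 24 h after plating and left with the siRNA for 72 h. The study asked which cellular pathways change when VAMP7 is lowered, and here the arrays also show which lineage factors give a signal before any differentiation is induced.

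Pluripotent cells hold the lineage factors in check and switch them on in sets. Nodal, WNT and BMP signals start the primitive streak factors T, EOMES and MIXL1, which mark cells about to form mesoderm and endoderm. GATA4, GATA6, SOX17 and FOXA2 then act in endoderm, and factors of this set also act in the extraembryonic endoderm that lines the yolk sac. In the absence of those signals the default path is neural: OTX2, a homeodomain factor of the epiblast and of the forebrain and midbrain, and PAX6, a paired-box factor of neuroectoderm, eye and forebrain. CDX2, a homeodomain factor, acts in trophectoderm and in the hindgut. NTERA2/D1 cells are known for giving rise to neurons under retinoic acid.

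The annotated start regions of 4 of these genes are shown. OTX2 and PAX6 are the 2 factors with a strong signal. T and MIXL1 are streak factors, T with a weak signal that was uneven between arrays and MIXL1 with a low one. The stretches are the 250 bases before the most upstream listed start, from RefSeq on GRCh38.p14, written 5′ to 3′ on the gene's strand with each CG in capitals. They lie at chr14:56810480-56810729 on the minus strand for OTX2, chr11:31817962-31818211 on the minus strand for PAX6, chr6:166168656-166168905 on the minus strand for T and chr1:226223414-226223663 on the plus strand for MIXL1.
OTX2: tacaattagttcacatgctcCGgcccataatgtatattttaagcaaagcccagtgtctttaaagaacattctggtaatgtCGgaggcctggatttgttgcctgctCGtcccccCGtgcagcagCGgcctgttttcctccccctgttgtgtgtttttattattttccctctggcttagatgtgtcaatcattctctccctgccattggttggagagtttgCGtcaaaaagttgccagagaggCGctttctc
PAX6: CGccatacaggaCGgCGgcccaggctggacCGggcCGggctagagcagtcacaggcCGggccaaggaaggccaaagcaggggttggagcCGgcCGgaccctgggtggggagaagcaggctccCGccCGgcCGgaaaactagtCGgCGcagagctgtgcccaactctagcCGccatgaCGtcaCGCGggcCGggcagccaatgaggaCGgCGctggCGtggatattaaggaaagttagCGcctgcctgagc
T: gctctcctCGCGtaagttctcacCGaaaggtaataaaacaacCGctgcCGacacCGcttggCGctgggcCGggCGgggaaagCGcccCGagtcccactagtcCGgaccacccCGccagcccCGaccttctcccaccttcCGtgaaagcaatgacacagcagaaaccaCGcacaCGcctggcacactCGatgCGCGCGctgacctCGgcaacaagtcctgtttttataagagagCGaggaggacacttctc
MIXL1: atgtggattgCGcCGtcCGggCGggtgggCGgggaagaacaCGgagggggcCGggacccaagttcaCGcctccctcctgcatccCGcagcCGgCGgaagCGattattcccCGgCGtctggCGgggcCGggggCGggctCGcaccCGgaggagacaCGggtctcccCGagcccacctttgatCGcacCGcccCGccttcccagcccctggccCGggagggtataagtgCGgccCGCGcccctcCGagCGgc
CG reads the same on both strands. The OTX2 stretch holds 7 CG pairs, and 58.9% of all 35116 such windows hold at least as many. The PAX6 stretch holds 22 (28% of windows hold at least as many), the T stretch 23 (25.8%) and the MIXL1 stretch 30 (12.4%), against a median of 11. Of the others with a window here, EOMES had 19, GATA6 16 and CDX2 10. OTX2 has 2 listed starts, with 4 and 7 CG pairs, and PAX6 has 9, with 3 to 28. The arrays read the 3′ part of transcripts and do not say which start is used.

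The deposited values are linear intensities, 1 for each probe set on each array, and their median ran from 64.25 to 67.54 on the VAMP7 siRNA arrays and from 58.85 to 65.11 on the scrambled siRNA arrays. No detection calls were used here, so a yardstick was made from 48 genes of differentiated tissues, such as insulin, a lens crystallin and a milk casein, which embryonal carcinoma cells are not known to express. Of these, 42 were measured by 66 probe sets. A gene is called above the yardstick where at least 1 of its probe sets lay above the 95th percentile of the 66 on every one of the 6 arrays. That percentile ran from 75.9 to 101 across the arrays. By this measure 56.6% of all genes (11184 of 19775) were above, and 2 of the 42 yardstick genes, KLK3 and CD79A, were so too. That small number follows from setting the level on these same probe sets and is not a result. Probe sets differ in how brightly they respond, so levels of different genes are not ranked.

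The cells had the signal of their label. Of 12 measured embryonal carcinoma markers 11 were above the yardstick, among them LIN28A, SOX2 and NANOG, and the exception was ZFP42, whose mean was 81.1 ± 17.8 on the VAMP7 siRNA arrays and 79.9 ± 12.5 on the scrambled siRNA arrays (SD, n = 3 each). POU5F1 had no probe set that names it alone. Of the markers of other cell types, 6 of 10 neuron markers (60%) were above, among them TUBB3 and NEFL, beside 56.6% of all genes. So were 4 of 9 fibroblast markers (44.4%), among them COL1A1 and THY1, and 2 of 9 yolk sac markers (22.2%). The trophoblast markers had 1 of 10 above (10%) and the leukocyte markers 0 of 6. The neuron and fibroblast shares were near or below that of all genes and were not tested. CD3E and MS4A1 are in both the leukocyte list and the yardstick, so part of that 0 was set by the choice of genes. VAMP7 averaged 153.6 ± 19.8 with its siRNA and 2615 ± 127 with scrambled siRNA (SD, n = 3 each), with no overlap. The labels number biological replicates without saying whether they were separate cultures, so the p-values rest on a spread that may be technical. VAMP7 siRNA replicate 1 had the lowest mean correlation with its fellow arrays, 0.988; the other 5 had 0.99 to 0.991.

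Of the 10 germ layer factors, 2 (20%) were above the yardstick, beside 56.6% of all genes. These were OTX2 and PAX6, both factors of anterior neural tissue, with OTX2 also a factor of the epiblast. Each was above on both of its probe sets. These 4 of the 21 probe sets compare with 39.6% of all probe sets above on every array. The lowest of their 24 readings was 836.8. The other 8 genes, which stand for the primitive streak, endoderm and trophectoderm, had no probe set above the yardstick on all arrays. Of their 17 probe sets, 14 were below it on every array, with readings between 1.28 and 65.3. In whole-culture RNA, fewer cells with a transcript and less of it per cell cannot be told apart, so a low signal may also be a few cells with a strong one.

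**Figure D1:**
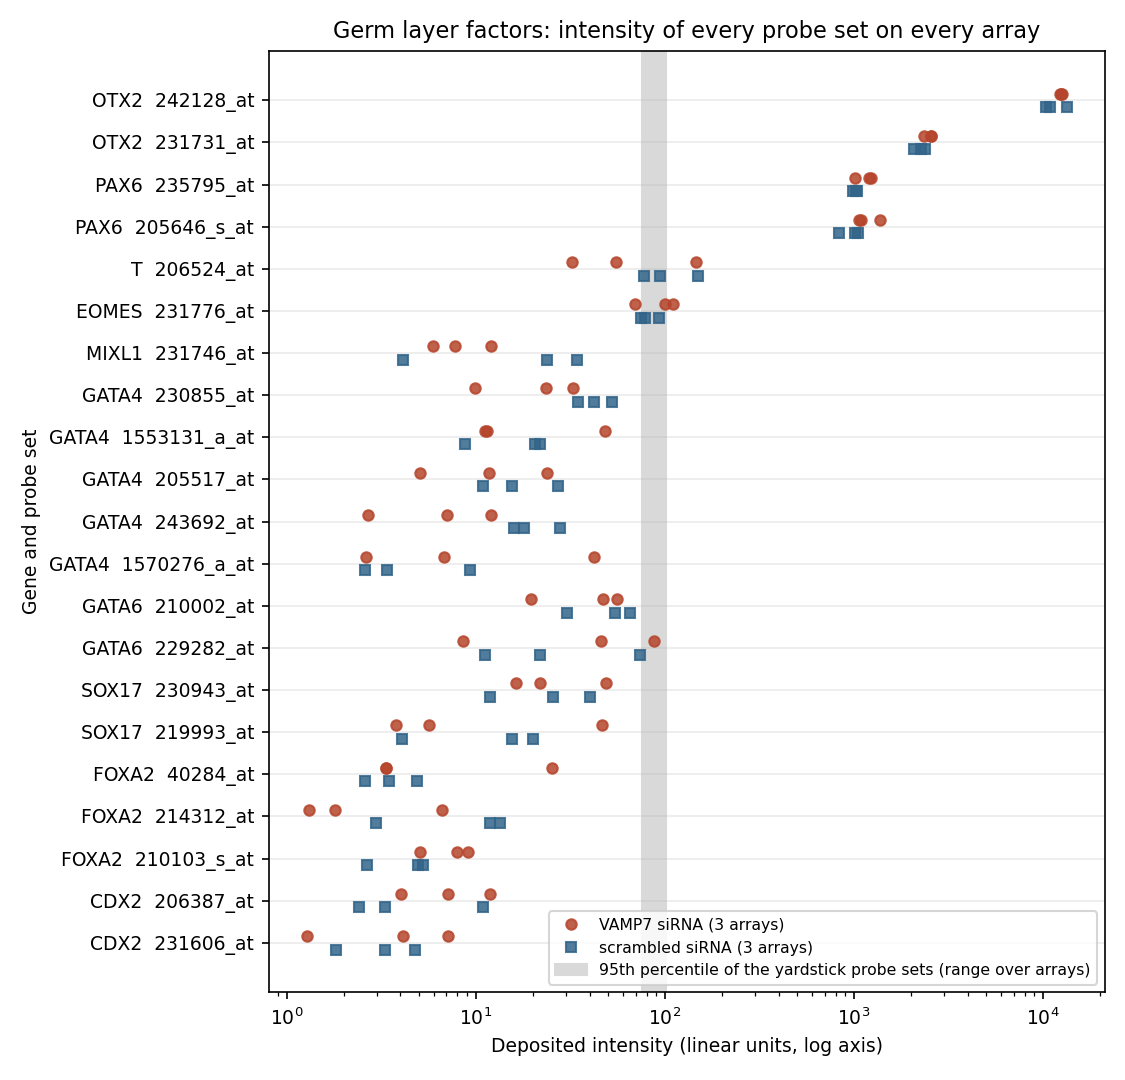
Each row is 1 probe set of a germ layer factor and each point 1 array, with VAMP7 siRNA (circles) above scrambled siRNA (squares), on a log axis of deposited intensity. The grey band is the range over arrays of the yardstick's 95th percentile, 75.9 to 101; the 4 OTX2 and PAX6 probe sets lie far to its right, T and EOMES straddle it, and the rest lie mostly to its left.

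OTX2 read 12278, 12608 and 12412 on the VAMP7 siRNA arrays, against 10310, 13339 and 10910 on the scrambled siRNA arrays on the brighter of its probe sets. The knockdown arrays fell within the range of the controls. The means were 12433 ± 166 with VAMP7 siRNA and 11520 ± 1604 with scrambled siRNA (SD, n = 3 each). Over the 6 arrays the probe set lay at percentile 98.48 to 98.79 of all probe sets. Its log2 fold change, VAMP7 siRNA over scrambled siRNA, was 0.12 (95% interval -0.16 to 0.40, limma adjusted p = 0.878), which bounds the fold between 0.893 and 1.32. The second OTX2 probe set read 2567, 2543 and 2335 with VAMP7 siRNA, against 2370, 2071 and 2267 with scrambled siRNA. Here 1 knockdown array lay within the control range, and the log2 fold change was 0.15 (SE 0.10, adjusted p = 0.851 over all probe sets). Both means were higher in the knockdown, by differences that did not pass the test. OTX2-AS1, a gene annotated antisense to OTX2, was read by 1 probe set at 145.4 ± 24.6 with VAMP7 siRNA and 117.5 ± 19.8 with scrambled siRNA (SD, n = 3 each), a log2 fold change of 0.22 (limma adjusted p = 0.812). It was above the yardstick on all 6 arrays and was added after its values had been seen.

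PAX6 read 1010, 1233 and 1205 on the VAMP7 siRNA arrays, against 1040, 1025 and 987.9 on the scrambled siRNA arrays on the brighter of its probe sets. Knockdown replicate 1 lay within the control range and the other two above it. The log2 fold change was 0.16 (95% interval -0.091 to 0.42, limma adjusted p = 0.824), a fold between 0.939 and 1.33. The second PAX6 probe set read 1091, 1377 and 1061 with VAMP7 siRNA, against 1011, 1056 and 836.8 with scrambled siRNA. All 3 knockdown arrays were above all 3 control arrays, by a narrow gap, and the log2 fold change was 0.27 (SE 0.15, adjusted p = 0.806 over all probe sets). Neither probe set passed the threshold of 0.05.

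**Figure D2:**
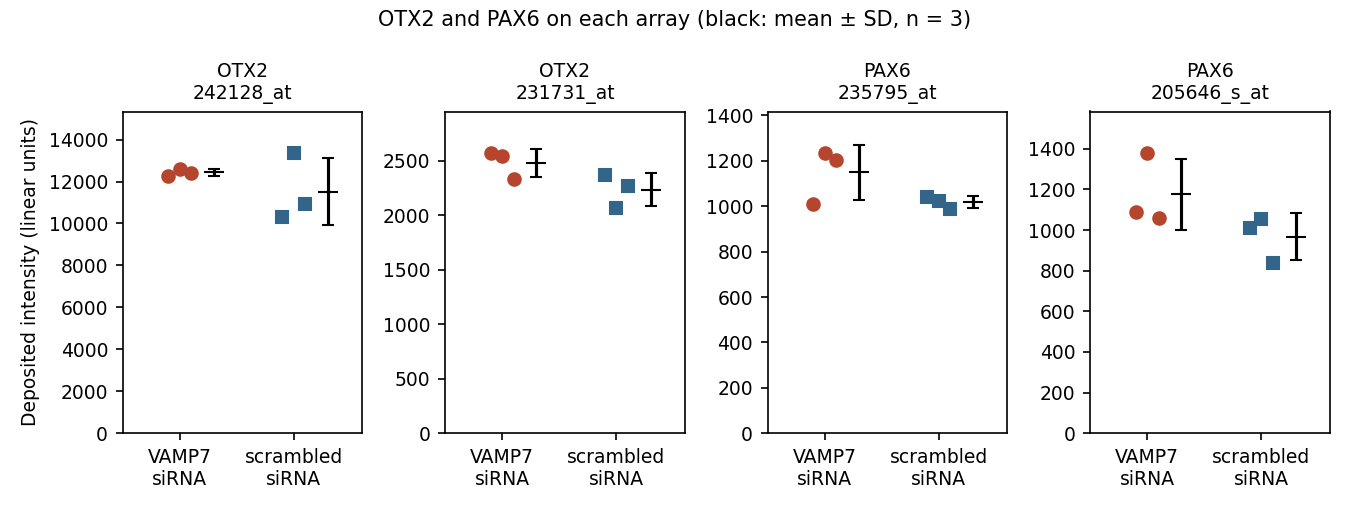
Deposited intensity (linear axis from 0) of both probe sets of OTX2 and of PAX6, 1 point per array, with VAMP7 siRNA left of scrambled siRNA and the mean ± SD in black. The groups overlap in 3 of the panels; in the PAX6 probe set on the right, the lowest knockdown array read 1061 and the highest control array 1056.

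T, the brachyury factor of the primitive streak and notochord, was near the yardstick and uneven between arrays. It read 55.4, 32.2 and 146.7 on the VAMP7 siRNA arrays, against 94.3, 150.2 and 77.7 on the scrambled siRNA arrays. Each group held 1 array well above its others, and the yardstick was passed on 1 knockdown and 2 control arrays. The log2 fold change was -0.37 with a wide interval (-1.15 to 0.41, limma adjusted p = 0.861), a fold between 0.451 and 1.33 on the scale with the offset of 50. With 1 array left out, the log2 fold change of T ran from -0.73 to -0.10. EOMES, the T-box factor that precedes mesoderm and definitive endoderm, was steadier, with 110.6, 69.4 and 100.3 on the VAMP7 siRNA arrays, against 75.1, 93.5 and 78.8 on the scrambled siRNA arrays. It passed the yardstick on 2 knockdown arrays and on no control array, while it was above the median of all probe sets on all 6. The groups overlapped, with a log2 fold change of 0.11 (SE 0.14, adjusted p = 0.903). MIXL1, the paired-type homeodomain factor of the streak, read 7.79, 5.92 and 12.0 with VAMP7 siRNA, against 34.2, 23.9 and 4.12 with scrambled siRNA. Controls 1 and 2 were above every knockdown array and control 3 below them all, and the log2 fold change was -0.25 (SE 0.17, adjusted p = 0.829).

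The GATA factors were below the yardstick in every reading but 1, of GATA6. GATA4, a zinc finger factor of endoderm and heart, read 23.6, 32.6 and 9.93 on the VAMP7 siRNA arrays, against 34.6, 52.3 and 42.4 on the scrambled siRNA arrays on the brightest of its 5 probe sets. All knockdown arrays were below all controls. The log2 fold change of -0.38 (SE 0.14) had the smallest p of the 10 genes, 0.0348 before and 0.728 after limma's Benjamini-Hochberg adjustment over 19775 genes. A second GATA4 probe set was also lower without overlap, at 7.09, 12.0 and 2.70 with VAMP7 siRNA, against 15.9, 28.1 and 18.1 with scrambled siRNA (log2 fold change -0.30, adjusted p = 0.744). The other 3 did not share this: their log2 fold changes were 0.10, -0.099 and 0.24, and their groups overlapped. Probe sets of the same gene therefore gave both directions at signals under the yardstick.

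GATA6, which acts with GATA4 in endoderm, read 46.8, 55.6 and 19.6 on the VAMP7 siRNA arrays, against 54.3, 65.3 and 30.4 on the scrambled siRNA arrays. Its second probe set spread more widely, with 8.60, 46.1 and 87.3 for VAMP7 siRNA, against 21.8, 11.2 and 73.5 for scrambled siRNA, and passed the yardstick on 1 knockdown array. The log2 fold changes were -0.15 (SE 0.20) and 0.17 (SE 0.37), so the probe sets differed in sign by less than their errors. GATA6-AS1, annotated antisense to GATA6 and added after its values had been seen, was not above the yardstick, at 35.5 ± 4.75 with VAMP7 siRNA and 26.8 ± 22.8 with scrambled siRNA (SD, n = 3 each).

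SOX17, the SRY-box factor of endoderm that also acts in the human germline, read 16.3, 49.1 and 21.9 on the VAMP7 siRNA arrays, against 12.0, 40.1 and 25.6 on the scrambled siRNA arrays. The groups had nearly the same range, and the log2 fold change was 0.054 (SE 0.20, limma adjusted p = 0.973). The second SOX17 probe set read 3.81 to 46.6 with VAMP7 siRNA and 4.06 to 20.0 with scrambled siRNA. FOXA2, a forkhead factor that opens chromatin in endoderm and floor plate, was below the yardstick throughout, and its 3 probe sets read 1.31 to 25.2 over the 6 arrays. The highest of these was 1 array, VAMP7 siRNA replicate 1 on 1 probe set, where the other 5 arrays read 2.60 to 4.89. The 3 FOXA2 log2 fold changes were 0.16, -0.16 and 0.080. CDX2 read 4.04, 7.12 and 12.0 on the VAMP7 siRNA arrays, against 2.41, 10.9 and 3.30 on the scrambled siRNA arrays, and its second probe set 1.28 to 7.11 on all 6. Its log2 fold change was 0.056 (SE 0.11, adjusted p = 0.941).

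No germ layer factor passed limma's threshold in the knockdown: 0 of 10 genes at an adjusted p under 0.05, where 0.00506% of all genes (1 of 19775, VAMP7) did, and 0 of 21 probe sets, where 0.00183% did. At an unadjusted p under 0.05 limma gave 1 of the 10, GATA4, where 6.66% of all genes passed, and 2 of the 21 probe sets, both GATA4, where 6.62% did. The groups did not overlap for 3 of the 21 probe sets, against 12.4% of all probe sets, with 1 higher (PAX6; 7.28% of all were higher) and 2 lower (GATA4; 5.15% were lower). Over the 10 genes the median log2 fold change was 0.055, with 6 above 0 and 4 below, and over all genes it was 0.003. Folds are on the log2(intensity + 50) scale, which understates changes of dim genes. The OTX2 and PAX6 intervals were narrower than those of T and GATA6. Narrow intervals were not limited to the bright genes: CDX2, a dim one, had -0.20 to 0.31 on this scale.

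**Figure D3:**
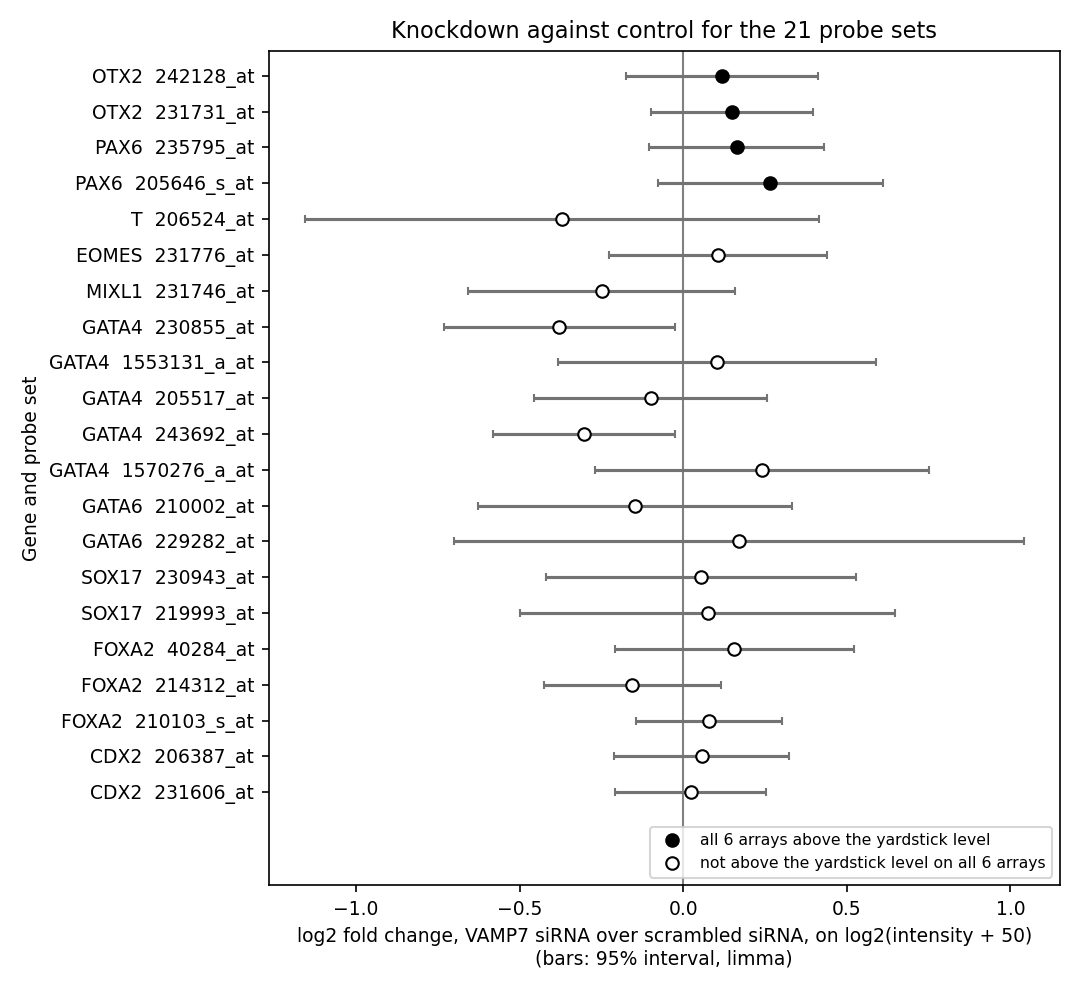
Log2 fold change, VAMP7 siRNA over scrambled siRNA, of each of the 21 probe sets with its 95% interval from limma; filled points are the OTX2 and PAX6 probe sets, above the yardstick on all arrays. Of the 21 intervals, 19 include 0, and the 2 that do not are GATA4 probe sets, with adjusted p of 0.744 each.

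The split between neural and other factors was looked at in wider lists of the same lineages, chosen with earlier results of these data known. Of 26 measured neuroectoderm factors 15 were above the yardstick (57.7%), against 8 of 18 mesoderm and streak factors (44.4%), 4 of 11 endoderm factors (36.4%) and 6 of 10 trophectoderm factors (60%), beside 56.6% of all genes. The neuroectoderm share was thus near that of all genes and not above that of trophectoderm factors. These lists did not set neural factors apart from all others. The shares were not tested. ZIC2, a zinc finger factor of the neural plate, averaged 13796 ± 529 with VAMP7 siRNA and 12769 ± 1189 with scrambled siRNA, and LHX2, a LIM homeodomain factor of forebrain and eye, 7710 ± 346 with VAMP7 siRNA and 6762 ± 602 with scrambled siRNA (SD, n = 3 each). Among the mesoderm and streak factors above the yardstick were TBX3, at 344.6 ± 39.5 with VAMP7 siRNA and 316.3 ± 36.8 with scrambled siRNA, and TWIST1, a mesenchymal factor, at 277 ± 6.25 with VAMP7 siRNA and 310.4 ± 51.6 with scrambled siRNA (SD, n = 3 each). Endoderm factors above it included PROX1, at 558.7 ± 72.9 with VAMP7 siRNA and 578.8 ± 100.5 with scrambled siRNA, and CEBPA, at 317.6 ± 53.1 with VAMP7 siRNA and 330.2 ± 60.8 with scrambled siRNA (SD, n = 3 each). Trophectoderm factors above it included TEAD4, a Hippo pathway factor, at 1628 ± 109 with VAMP7 siRNA and 1666 ± 64.7 with scrambled siRNA, and ARID3A, at 1648 ± 57.7 with VAMP7 siRNA and 1625 ± 32.5 with scrambled siRNA (SD, n = 3 each).

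**Figure D4:**
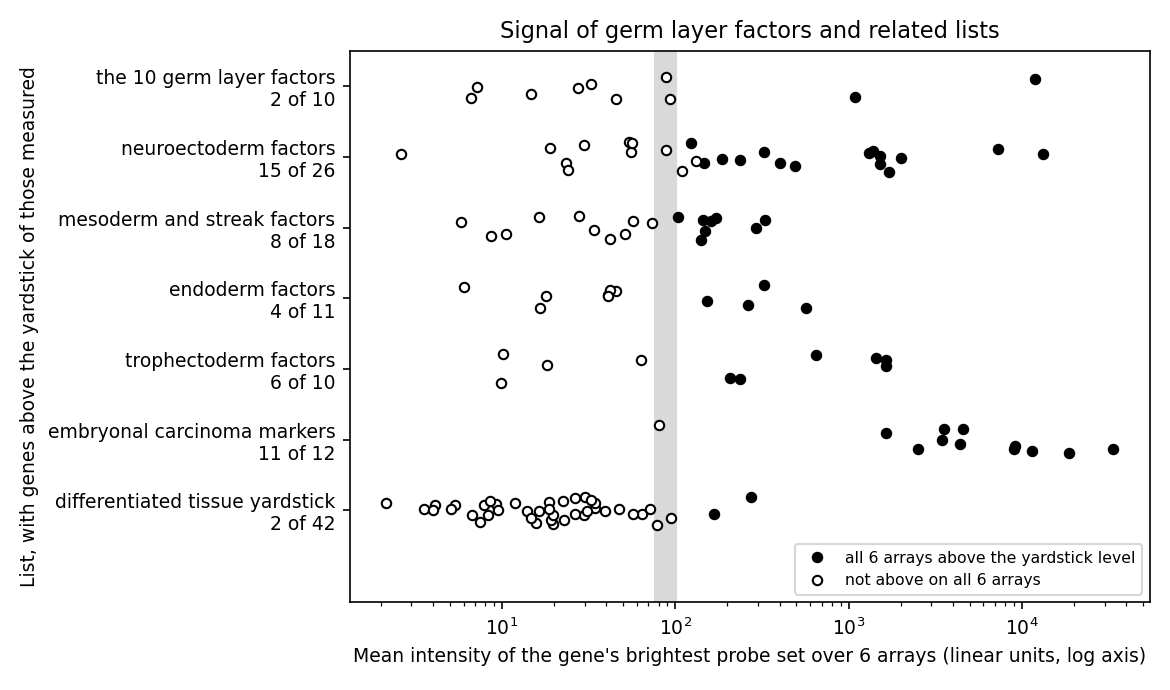
Each point is 1 gene, at the mean intensity over 6 arrays of its brightest probe set (log axis), filled where at least 1 of its probe sets was above the yardstick on all 6 arrays, and the grey band is the yardstick's 95th percentile. The germ layer factors fall into 2 bright genes and 8 near or left of the band, and 15 of 26 neuroectoderm factors are filled. So are 2 of the 42 yardstick genes, few by construction because the level was set on their own probe sets.

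In the knockdown none of these lists held a gene past limma's adjusted threshold. Among neuroectoderm factors, 3 of 26 were higher and 0 lower at an unadjusted p under 0.05, against 3.63% of all genes higher and 3.03% lower, and the list's median log2 fold change was 0.023, beside 0.003 for all genes. PAX3, a paired-box factor of the dorsal neural tube, read 2074, 1888 and 1835 on the VAMP7 siRNA arrays, against 1486, 1568 and 1412 on the scrambled siRNA arrays, with no overlap (log2 fold change 0.36, SE 0.097, adjusted p = 0.612). EMX2, a homeodomain factor of forebrain and urogenital tract, had the smallest p of the list (0.44, SE 0.091, adjusted p = 0.494). The third was SIX3, a homeodomain factor of forebrain and eye, named after its values had been seen (0.29, adjusted p = 0.74). The groups did not overlap for 4 of the 26, these 3 and LHX2, all higher in the knockdown, against 6.68% of all genes higher without overlap and 13% without overlap in either direction. In the same comparison 8 of 9 yolk sac markers were below 0 (median log2 fold change -0.25), as were 9725 of all 19775 genes. At the unadjusted threshold 2 of these 9 markers were lower and 0 higher, and 7 of the 9 were not above the yardstick. Of 12 embryonal carcinoma markers 2, NANOG and GDF3, were lower and 0 higher at that threshold. Of the 10 neuron markers, 5 were above 0 and 5 below, with a median of 0.003 and none at the unadjusted threshold in limma. None of these markers passed the adjusted threshold, and their part in the neuroectoderm values was not tested.

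The mesoderm and streak list of 18 measured genes had 1 higher and 0 lower at that unadjusted threshold and a median of -0.031. Of all genes, 3.63% were higher and 3.03% lower. TBX6, a T-box factor of paraxial mesoderm that was not above the yardstick, read 64.1, 59.1 and 58.9 with VAMP7 siRNA, against 29.0, 45.6 and 48.8 with scrambled siRNA (log2 fold change 0.29, adjusted p = 0.738). NKX2-5, a cardiac homeodomain factor, was at -0.26 (adjusted p = 0.745). In this list the groups did not overlap for TBX6 (higher) and NKX2-5 (lower), where 13% of all genes did not overlap. The endoderm and trophectoderm lists had 0 genes at the unadjusted threshold in limma, with medians of 0.026 and -0.004. The smallest p values were those of PDX1 (0.39, adjusted p = 0.802) and HHEX (-0.21, adjusted p = 0.857) in endoderm, and of DLX3 (-0.30, adjusted p = 0.759) and ELF5 (0.46, adjusted p = 0.787) in trophectoderm, all 4 of them not above the yardstick.

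Measured were 24 ligands, antagonists, receptors and effectors of the Nodal, WNT, BMP and FGF signals. Of these, 17 (70.8%) were above the yardstick, beside 56.6% of all genes. They included CTNNB1, the WNT effector beta-catenin, at 16379 ± 2026 with VAMP7 siRNA and 16497 ± 1901 with scrambled siRNA, and ACVR2B, an activin and Nodal receptor, at 9017 ± 739 with VAMP7 siRNA and 8402 ± 652 with scrambled siRNA (SD, n = 3 each). The 7 not above it were NODAL, LEFTY1, WNT8A, FGF17, CER1, CHRD and INHBA. NODAL itself averaged 61.0 ± 22.4 with VAMP7 siRNA and 79.9 ± 30.2 with scrambled siRNA (SD, n = 3 each). None of the 24 passed limma's adjusted threshold. At the unadjusted one 1 was higher and 1 lower, against 3.63% of all genes higher and 3.03% lower. CER1, a secreted Nodal, BMP and WNT antagonist, read 57.8, 66.5 and 84.0 with VAMP7 siRNA, against 18.5, 41.5 and 37.1 with scrambled siRNA, without overlap but not above the yardstick (log2 fold change 0.54, adjusted p = 0.612). GDF3, a ligand related to Nodal, read 1418, 1575 and 1506 with VAMP7 siRNA, against 1740, 1684 and 2006 with scrambled siRNA (-0.26, adjusted p = 0.74).

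Across the 6 arrays the genes whose log2 values ran most like those of OTX2, among 9887 others at or above the median gene, were SMARCC1, a chromatin remodelling subunit, IARS2, the mitochondrial isoleucyl-tRNA synthetase, and C2CD5. Their Pearson correlations with OTX2 were 0.989, 0.987 and 0.986. These are the highest of many values over 6 arrays that share their scaling, and they describe these arrays only.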

How the data were processed

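Gene expression was measured on 6 arrays, 3 per group. The deposited values were linear intensities, 1 per probe set. Each array had a trimmed mean near 500.1, so the authors' values had been scaled to 1 target. The submitters' processing notes name RMA, which gives log2 values of equal distribution and does not describe these. The background correction is not given in the sources used here. Gene names came from the annotation of the platform, and 41037 of the 41091 that named 1 gene matched RefSeq by gene ID. The probe set of highest mean stood for its gene. Intensities were put on the log2 scale after adding 50 and fitted with lmFit and eBayes (limma 3.58.1 under R 4.3.3) over 19775 genes, and separately over 54613 probe sets, with Benjamini-Hochberg adjustment. The code was tested on simulated data.

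The members, lists and tests were chosen with earlier results of these data known. The genes named were the 10 factors, VAMP7, and from each lineage or signal list the 2 of smallest p and the 2 brightest, plus the 3 most like OTX2. Named outside this rule, after their values were seen, were the antisense genes OTX2-AS1 and GATA6-AS1, and SIX3. So were the signal genes not above the yardstick, apart from CER1, and examples from the marker and yardstick lists. Alternatives covered the dim-gene filter, probe set choice, normalization, offset, eBayes options, array weights, the replicate block and each array left out. Same-numbered replicates did not deviate together (correlations -0.0055, 0.013 and -0.014), so the numbers were not taken to pair the samples. The number of arrays limits the precision.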

Additional observations from a re-analysis of the deposited data

How the results depend on the processing

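No germ layer factor passed the adjusted threshold in any of the 17 alternative gene fits or the 14 alternative probe set fits, the latter added after the data had been seen. The smallest adjusted p of a member was 0.575, for GATA4 with array weights. With the replicate block the members' adjusted p ran from 0.773 to 0.947. The block lowered the SE of GATA6 (0.20 to 0.10) and SOX17 (0.20 to 0.11). It raised that of T (0.33 to 0.36) and EOMES (0.14 to 0.16). Of 162 log2 fold changes recomputed, 157 kept their sign and 5 changed it, all of dim genes. Some could not change: the eBayes options, the replicate block and the fit over all probe sets return the main log2 fold change. So do the dim-gene filter for OTX2 and PAX6 and the probe set mean for genes with 1 probe set. The 157 therefore overstate how steady the signs were. GATA6 turned to 0.011 when its probe sets were averaged, and with 1 array left out it ran from -0.30 to 0.032, positive without VAMP7 siRNA replicate 3. SOX17 ran from -0.12 to 0.19 with 1 array left out, negative without scrambled siRNA replicate 1 or VAMP7 siRNA replicate 2. FOXA2 ran from -0.0086 to 0.24, negative without VAMP7 siRNA replicate 1. The cause of the sign changes was not tested. Without an offset the values of dim genes grew in both directions: GATA4 was at -1.11, MIXL1 at -0.86, T at -0.69, GATA6 at -0.36, FOXA2 at 0.88, CDX2 at 0.66, SOX17 at 0.17 and EOMES at 0.16. OTX2 and PAX6 were the 2 members above the yardstick at the 90th and 99th percentiles and without any 1 array, and EOMES joined them when the median of all probe sets was the level. With the filter on dim genes only OTX2 and PAX6 had values.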
